A study of Mus musculus with 19 samples.

Results

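The heart and the tibialis anterior muscle of wild-type mice were set directly against each other, as 2 striated muscles that contract with different sets of genes. RNA-Seq had been carried out on 7 tissues of C57BL/6J WT mice to see where candidate secreted factors of skeletal muscle are expressed, and each tissue is represented by 1 library. No treatment is named for either tissue, and the mice behind this tissue survey were male. An age of some months is stated for the chow-fed mice of the whole study and independent animals for its RNA-Seq in general, but the age of these donors and the number of animals per library are not given in the sources used here. Expression is in FPKM, a fragment count corrected for exon length and for sequencing depth. Of the 55573 genes in the table, 6454 reached an FPKM of 5 in at least one of the 2 muscles and were compared, 5781 of them in heart, 4975 in tibialis anterior and 4302 in both.

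Cardiac and skeletal muscle share the architecture of the sarcomere, in which myosin thick filaments pull on actin thin filaments once calcium binds troponin, but many of its proteins are encoded by separate genes in each. The heart beats without pause, couples its cells electrically through intercalated discs, triggers calcium release by calcium entry and burns mainly fatty acids. The tibialis anterior is a limb muscle rich in fast fibers, which contract on command of a motor nerve, release calcium by direct coupling of channels and draw heavily on glycogen and glycolysis.

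The labels of both libraries were checked against *Myh6*, the alpha myosin heavy chain of cardiomyocytes, and *Myh4*, the myosin heavy chain of the fastest fibers. *Myh6* (ENSMUSG00000040752, chr14:54941921-54966927 of GRCm38, minus strand) had an FPKM of 14088 in heart and 58.7 in tibialis anterior, and *Myh4* (ENSMUSG00000057003, chr11:67238029-67260446, plus strand) had 1.87 in heart and 16821 in tibialis anterior. Both markers thus lay with their labels. Genes of mitochondrial DNA took 53.6% of the summed FPKM in heart and 29.2% in tibialis anterior. The 13 protein-coding genes among them took 45.8% and 28.2%. The number of reads is not stated, and the step between low FPKM values of 595 genes gave both libraries about the same depth. The most common step held only 23 of these genes, so the equal depth is a rough estimate. With 1 library per tissue the differences have no replicate check and no p-value is given. In bulk tissue, fewer cells of a type and less RNA per cell cannot be told apart.

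Differences are given as log2(FPKM + 1) of heart minus tibialis anterior, and a gene was called when FPKM + 1 was at least 4-fold higher in either muscle. In heart 426 genes were at least 4-fold higher, 6.6% of the genes compared, and 278 genes, or 4.31%, were at least 4-fold higher in tibialis anterior. Every count of called list members below is to be read beside these shares. At least 10-fold differences were equally frequent, with 126 genes or 1.95% on each side. The farthest genes were not placed evenly, however, since the largest difference was 7.88 on the heart side and −13.09 on the tibialis anterior side, where 9 genes lay beyond −10. The median difference of all genes compared was 0.19, and 67.9% of them lay within 2-fold. As a scale for such folds, the 3 WT libraries of cold-exposed brown adipose tissue (8 °C for 1 week) were set against each other. They come from another tissue and experiment and put between 0.254% and 0.303% of genes 4-fold apart from one library to the next. Single genes lay much farther apart. The largest absolute difference was 8.853 between replicates 1 and 2, 8.997 between 1 and 3, and 4.028 between 2 and 3. The larger of these values exceed the 7.88 of the heart side, so a large difference of a single gene can also arise between replicates.

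The scaling of the libraries matters here because of the mitochondrial share. The median difference of all genes moved from 0.19 to −0.05 when FPKM was rescaled to the same sum, to −0.04 with median-ratio scaling, to 0.08 without the 10 most abundant genes and to 0.60 when genes of mitochondrial DNA were left out of the sum. With the last scaling 644 genes were called for heart and 222 for tibialis anterior, so that the share of heart among the called genes went from 60.5% to 74.4%. It was 51.98% when FPKM was rescaled to the same sum. Genes whose difference is within this shift are given below as values with no direction.

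**Figure D1:**
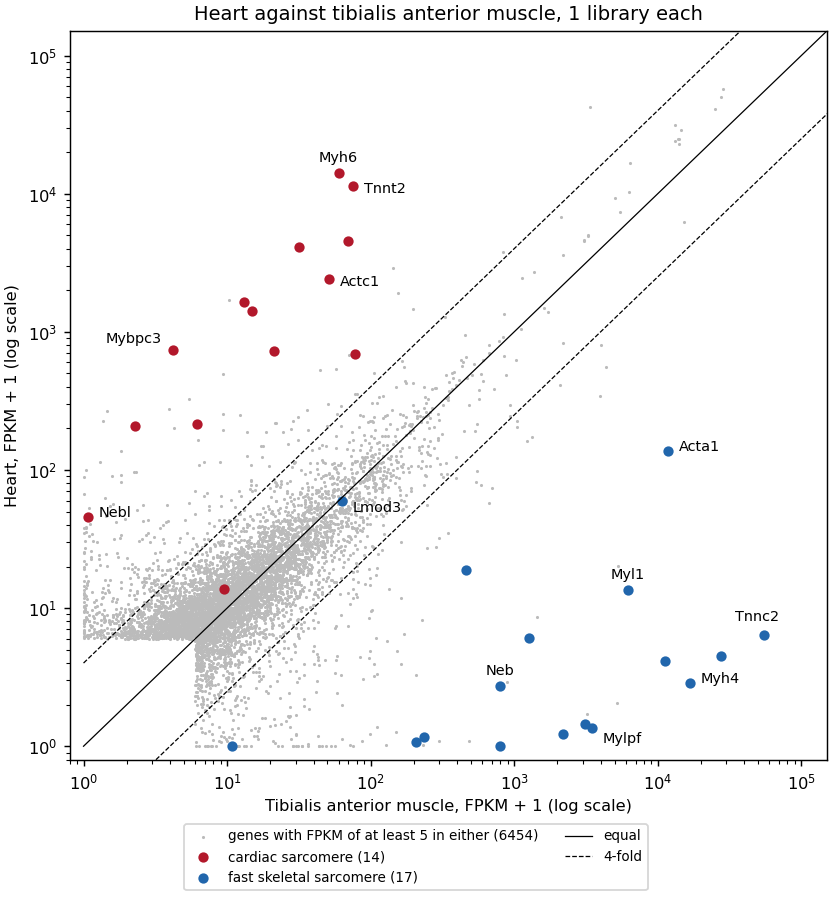
FPKM + 1 of each of the 6454 genes compared (grey points), tibialis anterior on the horizontal and heart on the vertical log axis, with the 14 cardiac (red) and 17 fast skeletal (blue) sarcomere genes that reached an FPKM of 5. The solid line marks equal values and the dashed lines 4-fold differences. *Myh6* lies at 14088 FPKM in heart and *Tnnc2* at 55389 FPKM in tibialis anterior, while *Lmod3*, whose direction flips with the scaling, lies on the line of equality.

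Of all lists, those of genes that drive contraction had the largest median difference in each direction. Their members were chosen as forms known from cardiac or fast skeletal muscle, so the split describes these forms and is not a separate result. The slow chain *Myh7* held only 0.0436% of its family in tibialis anterior, so heart was not compared with slow fibers. Of 15 genes for cardiac forms of sarcomere proteins, 13 were at least 4-fold higher in heart and none in tibialis anterior, where 6.6% and 4.31% of all genes compared were called, and their median difference was 6.03 against 0.19 for all genes. Of 17 genes for fast skeletal forms, 16 were at least 4-fold higher in tibialis anterior and none in heart, with a median of −8.85. The cardiac gene that missed the filter was *Myl7*, the atrial regulatory light chain, with 3.52 FPKM in heart and 0 in tibialis anterior. *Myl4*, the light chain of atria and of developing muscle, was close in both at 12.7 and 8.59 FPKM. Among the fast genes, *Lmod3*, which acts at the pointed ends of thin filaments, had 58.5 FPKM in heart and 62.4 in tibialis anterior.

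The thick filament used a different motor in each muscle. *Myh6* made up 98.00% of the summed FPKM of 8 myosin heavy chain genes in heart, and *Myh7*, the slow beta chain that shares its chromosome, made up 1.75% at 251 FPKM. In tibialis anterior *Myh4* made up 87.2%, *Myh1* of the intermediate fast fibers 11.3% and *Myh2* of the fast oxidative fibers 1.07%. *Myh7* had only 8.41 FPKM there, which is 0.0436% of the family. *Myh6* and *Myh7* are near copies that lie side by side, as do the 3 fast genes, so reads may have been split among them, and exons of *Myh7* overlap those of the antisense transcript *Mhrt*. The perinatal gene *Myh8* had 12.5 FPKM in tibialis anterior and the embryonic gene *Myh3* 0.736, and both were listed at 0 in heart.

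The light chains clasp the lever arm of myosin, and here each muscle also relied on its own pair. The essential light chain was *Myl3* in heart, at 4536 against 68.4 FPKM, and *Myl1* in tibialis anterior, at 6227 against 12.5. The regulatory light chain was *Myl2* in heart (1656 against 12.1 FPKM) and *Mylpf* in tibialis anterior (3479 against 0.351). Each of these 4 genes held over 90% of its family in its own muscle. The kinases that phosphorylate the regulatory chain were divided in the same way, since *Mylk3* had 208 FPKM in heart and 1.27 in tibialis anterior, and *Mylk2* had 0.161 in heart and 235 in tibialis anterior. The thick filament accessory protein was *Mybpc3* in heart with 737 FPKM against 3.21, and *Mybpc2* in tibialis anterior with 1275 against 5.04. *Mybpc1*, named for slow muscle, was also a tibialis anterior gene at 486 FPKM, with 0.0856 in heart.

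The thin filament held the largest difference of all genes compared. Troponin is made of an inhibitory subunit I, a tropomyosin-binding subunit T and a calcium sensor C. Troponin C was almost purely *Tnnc1* in heart, at 1411 against 14.01 FPKM in tibialis anterior, and almost purely *Tnnc2* in tibialis anterior, at 55389 against 5.34 in heart. Troponin T was *Tnnt2* in heart (11404 against 74.4 FPKM) and *Tnnt3* in tibialis anterior (27391 against 3.51). Troponin I was *Tnni3* in heart (4138 against 30.6 FPKM) and *Tnni2* in tibialis anterior (11204 against 3.12). The slow forms of troponin I and T had no large place in either muscle. *Tnni1* had 0.256 and 1.09 FPKM and *Tnnt1* 18.3 and 14.7 FPKM in heart and tibialis anterior. Exons of *Tnnc2* overlap those of *Ube2c* and exons of *Tnni3* those of *Dnaaf3*, and since the alignment did not use strand, reads of either partner cannot be told apart.

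Actin was less strictly divided than troponin. *Actc1*, the cardiac actin, held 94.6% of sarcomeric actin in heart with 2402 FPKM against 50.2 in tibialis anterior. *Acta1*, the skeletal actin, held 99.6% in tibialis anterior with 11741 FPKM, but also 5.37% in heart with 136 FPKM. Their coding sequences are close to each other, so that reads may have been split between them. Tropomyosin, which covers the myosin sites on actin, was led by *Tpm1* in both muscles, at 6236 FPKM in heart and 15149 in tibialis anterior. A second tropomyosin gene, *Tpm2*, was abundant in tibialis anterior alone, with 5248 FPKM against 19.3 in heart.

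The totals of several families differed less than their members. The 8 myosin heavy chains summed to 14376 FPKM in heart and 19281 in tibialis anterior, the essential light chains to 4563 and 6307, and troponin T to 11426 and 27480.3. Troponin C stood out, with 1417 FPKM in heart and 55403 in tibialis anterior, a ratio of 39.1. Alpha-actinin summed to 443 and 3276 FPKM, and the ratio was 5.83 for the nebulin family, 4.65 for sarcomeric actin and 3.22 for tropomyosin. The leiomodins went the other way and summed to 751 FPKM in heart and 142 in tibialis anterior. *Tnnc2* was the most abundant gene of the tibialis anterior library, and its FPKM exceeded those of its partners *Tnnt3* and *Tnni2*.

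The sequence before the start is shown for the 3 sarcomere genes farthest from equality in each direction among those where no annotated exon overlaps the stretch and the RefSeq start lies near the GENCODE start, at most 217 bases away. Each is the 120 bases upstream of the RefSeq start on GRCm38.p6, read 5′ to 3′ on the strand of the gene. Capitals mark matches on either strand to TATAAA, to the E-box CANNTG of basic helix-loop-helix factors, to the GATA motif AGATAA, to the CArG box of serum response factor and to the MEF2 box, of which a MEF2 box can contain TATAAA. The first 3 belong to heart genes, *Mybpc3* (chr2:91118024-91118143, plus strand), *Tnnt2* (chr1:135836214-135836333, plus strand) and *Tnnc1* (chr14:31208192-31208311, plus strand). The others belong to tibialis anterior genes, *Myh4* (chr11:67237692-67237811, plus strand), *Mybpc2* (chr7:44524670-44524789, minus strand) and *Myh2* (chr11:67170907-67171026, plus strand). No motif was found in the stretches of *Tnnc1*, *Mybpc2* and *Myh2*.
Mybpc3: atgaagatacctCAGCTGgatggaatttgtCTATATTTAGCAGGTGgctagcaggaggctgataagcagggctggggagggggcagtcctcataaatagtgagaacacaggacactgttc
Tnnt2: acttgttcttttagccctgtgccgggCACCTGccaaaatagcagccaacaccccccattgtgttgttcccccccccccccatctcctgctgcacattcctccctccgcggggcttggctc
Tnnc1: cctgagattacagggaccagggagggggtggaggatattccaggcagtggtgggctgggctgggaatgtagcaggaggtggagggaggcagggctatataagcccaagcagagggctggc
Myh4: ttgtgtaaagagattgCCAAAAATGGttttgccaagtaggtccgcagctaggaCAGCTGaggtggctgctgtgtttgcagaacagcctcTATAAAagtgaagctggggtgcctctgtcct
Mybpc2: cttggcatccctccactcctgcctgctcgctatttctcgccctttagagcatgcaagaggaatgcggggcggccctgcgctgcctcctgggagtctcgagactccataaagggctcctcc
Myh2: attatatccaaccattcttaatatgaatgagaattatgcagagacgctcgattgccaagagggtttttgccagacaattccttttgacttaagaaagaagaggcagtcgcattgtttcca

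Within such stretches TATAAA was found in 5 of the 9 fast skeletal sarcomere genes that have a promoter in the RefSeq table (*Myh1*, *Myh4*, *Myl1*, *Acta1* and *Mybph*, a relative of myosin-binding protein C) and in none of the 15 cardiac sarcomere genes. All promoters of the table held it in 6.54% of 20960 cases and those of the genes compared in 3.04% of 5069. In the window of 300 bases that holds each stretch, TATAAA was in 6 of the 9 fast promoters, against 13.4% of all promoters. In that window it was also in 3 of the 15 cardiac ones, *Myh6*, *Myl2* and *Actc1*. Some RefSeq starts lie far from the GENCODE start, by 7762 bases for *Myl2* and 2718 for *Mylpf*. Within the stretches of 120 bases CANNTG was found in 9 of the 15 cardiac and 4 of the 9 fast promoters, against 38.2% of all. The CArG box was found in *Myl3*, *Myl7* and *Actc1* of the cardiac list and in *Myh4* and *Acta1* of the fast list, against 0.697% of all promoters. AGATAA was in 2 of the 15 cardiac promoters (*Mylk3* and *Ankrd1*) and in 3.93% of all, and the MEF2 box was in *Mybpc3* and *Myoz2* and in 1.27% of all. In the window of 300 bases the MEF2 box was also in *Myh1* and *Myh4* of the fast list, against 2.99% of all. These matches describe letters in the sequence, and binding was not measured.

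At the Z disc, which anchors the thin filaments, alpha-actinin was *Actn2* in heart (442 FPKM, 99.9% of the family) and mostly *Actn3* in tibialis anterior (3104 FPKM). *Actn2* had 172 FPKM in tibialis anterior, so the cardiac form was shared while *Actn3* was nearly absent from heart at 0.46 FPKM. The calcineurin-binding myozenins were split into *Myoz2* in heart (722 against 20.3 FPKM) and *Myoz1* and *Myoz3* in tibialis anterior (794 and 42.6 FPKM), both of the latter listed at 0 in heart. Nebulin, the ruler of the skeletal thin filament, had 800.0 FPKM in tibialis anterior and 1.74 in heart, and its cardiac relative *Nebl* had 44.7 in heart and 0.07 in tibialis anterior.

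The scaffold that both muscles need was less divided. Of 25 genes for giant, Z-disc and M-band proteins, 2 were called for heart and 4 for tibialis anterior, beside 6.6% and 4.31% of all genes compared, and the median was −0.83. The giant spring titin, *Ttn*, had 40.9 FPKM in heart and 76.8 in tibialis anterior, the M-band gene *Myom2* had 383 and 367, and the intermediate filament desmin, *Des*, had 482 and 876. *Myom1*, *Myom2*, *Smyd1* and *Trim63* had directions that flipped with the scaling. The called genes were *Tpm2*, described above, 3 genes for LIM-domain proteins and a pair of Kelch genes. *Fhl2* had 266 FPKM in heart and 0.467 in tibialis anterior, *Csrp3*, the muscle LIM protein, had 493 and 8.35, and *Fhl1* went the other way with 5.51 and 169. The nemaline myopathy genes *Klhl40* and *Klhl41* were higher in tibialis anterior, at 23.9 against 4.14 and 111 against 18.5 FPKM.

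Cardiomyocytes are joined end to end by intercalated discs, which skeletal fibers lack. Of 13 genes of this junction 7 were called for heart and none for tibialis anterior, beside 6.6% and 4.31% of all genes compared. Their median was 2.34. Desmoplakin, *Dsp*, which ties desmosomes to desmin, had 225 FPKM in heart and 0.369 in tibialis anterior. N-cadherin, *Cdh2*, had 91.5 and 0.816, and connexin 43, *Gja1*, the main gap junction channel of the ventricle, had 114 and 5.91. Plakophilin 2, *Pkp2*, and desmoglein 2, *Dsg2*, had 23.9 and 21.6 FPKM in heart against 0.715 and 0.135. Members with a role in other tissues were less separated, among them vinculin, *Vcl*, at 20.1 and 12.2 FPKM and the tight junction scaffold *Tjp1* at 14.6 and 5.30.

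**Figure D2:**
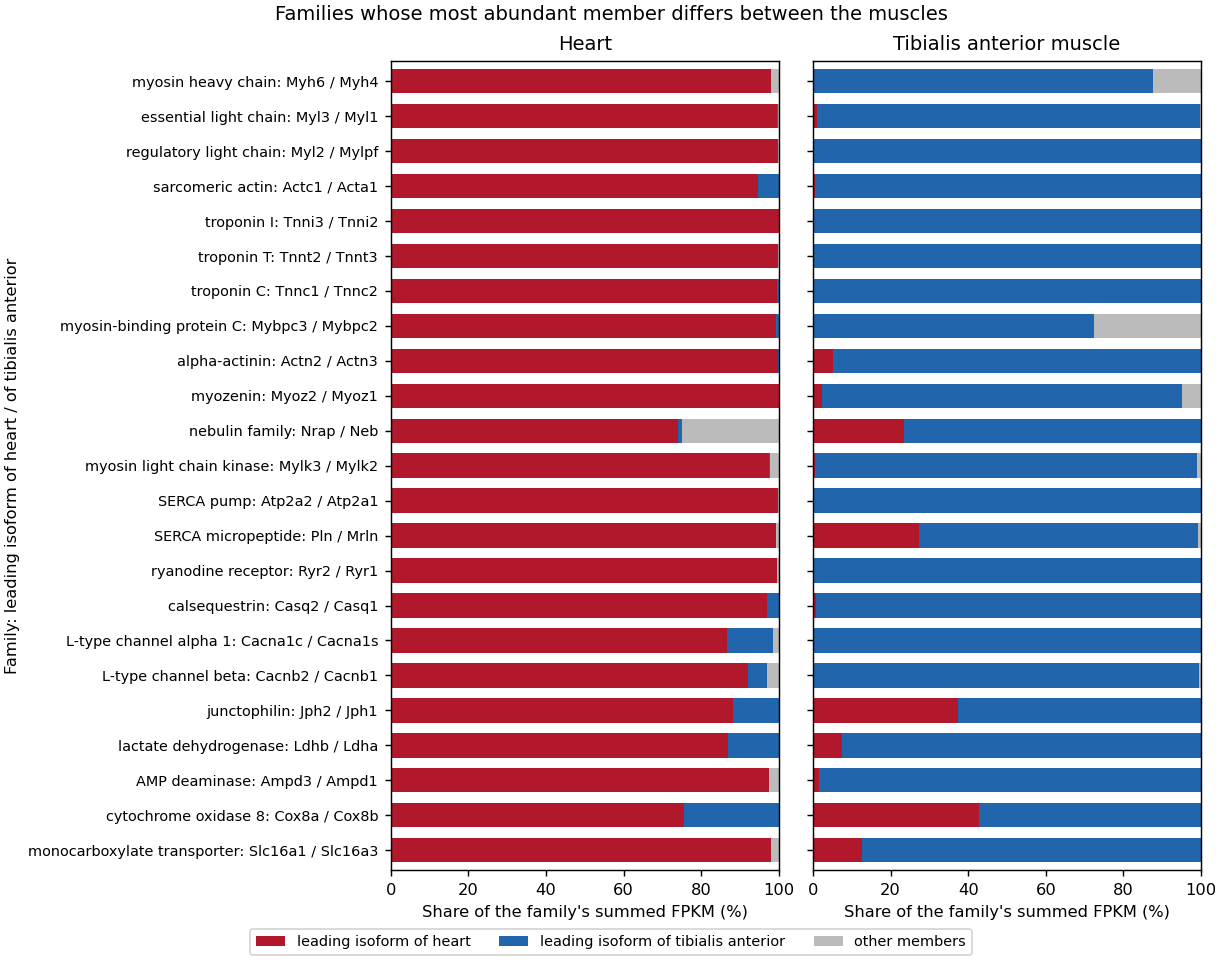
Share of each family's summed FPKM (horizontal axis, percent) held by the leading isoform of heart (red), the leading isoform of tibialis anterior (blue) and the other members (grey), in heart (left) and tibialis anterior (right), for 23 of the families whose leading isoform differed. In 14 of those drawn the leading isoform held over 90% in both muscles, and the lowest leading share was 74.1% in heart and 57.2% in tibialis anterior.

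Across 44 protein families with more than one gene, the most abundant member differed between heart and tibialis anterior in 25 and was the same in 19. In 15 of the 25, the leading member held over 90% of the family's summed FPKM in both muscles, so that the exchange was nearly complete. The 25 included 4 metabolic families, those of lactate dehydrogenase, AMP deaminase, cytochrome oxidase 8 and the monocarboxylate transporters. FPKM is scaled by exon length, so the members of a family can be set side by side, but the choice of families is not a sample of the genome.

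Calcium is let in, released and pumped back by proteins that differ between the muscles. Of 15 genes for cardiac calcium handling 8 were called for heart and none for tibialis anterior, beside 6.6% and 4.31% of all genes compared. Their median was 2.07. Of 17 genes for skeletal calcium handling 14 were called for tibialis anterior and none for heart, with a median of −5.35. The pump that returns calcium to the sarcoplasmic reticulum was *Atp2a2* in heart, at 1709 FPKM against 9.28, and *Atp2a1* in tibialis anterior, at 5172 against 1.04. *Atp2a2* was lower in tibialis anterior than in any of the other 5 tissues, where it lay between 19.8 FPKM in liver and 111 in brain. Exons of *Atp2a1* overlap those of *Rabep2*, without strand to part them.

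The release channel was *Ryr2* in heart, at 99.00 FPKM against 0.0475 in tibialis anterior, and *Ryr1* in tibialis anterior, at 231 against 0.0184 in heart. Both lists thus held a channel that was all but missing in the other muscle. The calcium buffer of the reticulum was *Casq2* in heart (249.7 against 11.3 FPKM) and *Casq1* in tibialis anterior (1437 against 7.64). Parvalbumin, *Pvalb*, the cytosolic buffer that speeds relaxation of fast fibers, had 3213 FPKM in tibialis anterior and 0.698 in heart. Triadin, *Trdn*, which holds calsequestrin at the release channel, was abundant in both, with 225 FPKM in heart and 1045 in tibialis anterior. So was *Hrc*, a histidine-rich calcium binder of the same compartment, with 1055 and 1117 FPKM and a direction that flipped with the scaling.

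Calcium enters through L-type channels of the T tubule. Their pore was *Cacna1c* in heart (21.7 against 0.284 FPKM) and *Cacna1s*, the voltage sensor of skeletal muscle, in tibialis anterior (161 against 2.96). The auxiliary beta subunit was *Cacnb2* in heart (26.2 against 0.0273 FPKM) and *Cacnb1* in tibialis anterior (57.8 against 1.44). The alpha2-delta subunit *Cacna2d1* was not divided and had 27.02 and 28.2 FPKM. *Stac3*, *Jsrp1* and *Cacng1*, which take part in skeletal coupling, had 149.9, 296 and 85.7 FPKM in tibialis anterior and 0.266, 0.0854 and 0.0904 in heart. The tether *Jph1* was a tibialis anterior gene at 96.97 against 7.44 FPKM, while *Jph2* had 55.8 in heart and 58.1 in tibialis anterior. The sodium-calcium exchanger *Slc8a1*, which extrudes calcium from cardiomyocytes, had 30.7 FPKM in heart and 2.56 in tibialis anterior.

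Small membrane peptides tune the pump. Phospholamban, *Pln*, which slows *Atp2a2* until it is phosphorylated, had 324 FPKM in heart and 4.42 in tibialis anterior. Myoregulin, *Mrln*, its skeletal relative, had 11.7 FPKM in tibialis anterior and 0.129 in heart. Sarcolipin, *Sln*, an atrial and slow-fiber peptide, was near 0 in both at 0.645 and 0.128 FPKM, and *Strit1*, which relieves the inhibition, had 1.44 in heart and 0 in tibialis anterior. The summed FPKM of these 4 peptides was 327 in heart and 16.2 in tibialis anterior, whereas the pump itself summed to 1712 and 5182. Peptide and pump messages were therefore ranked in opposite order across the muscles.

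**Figure D3:**
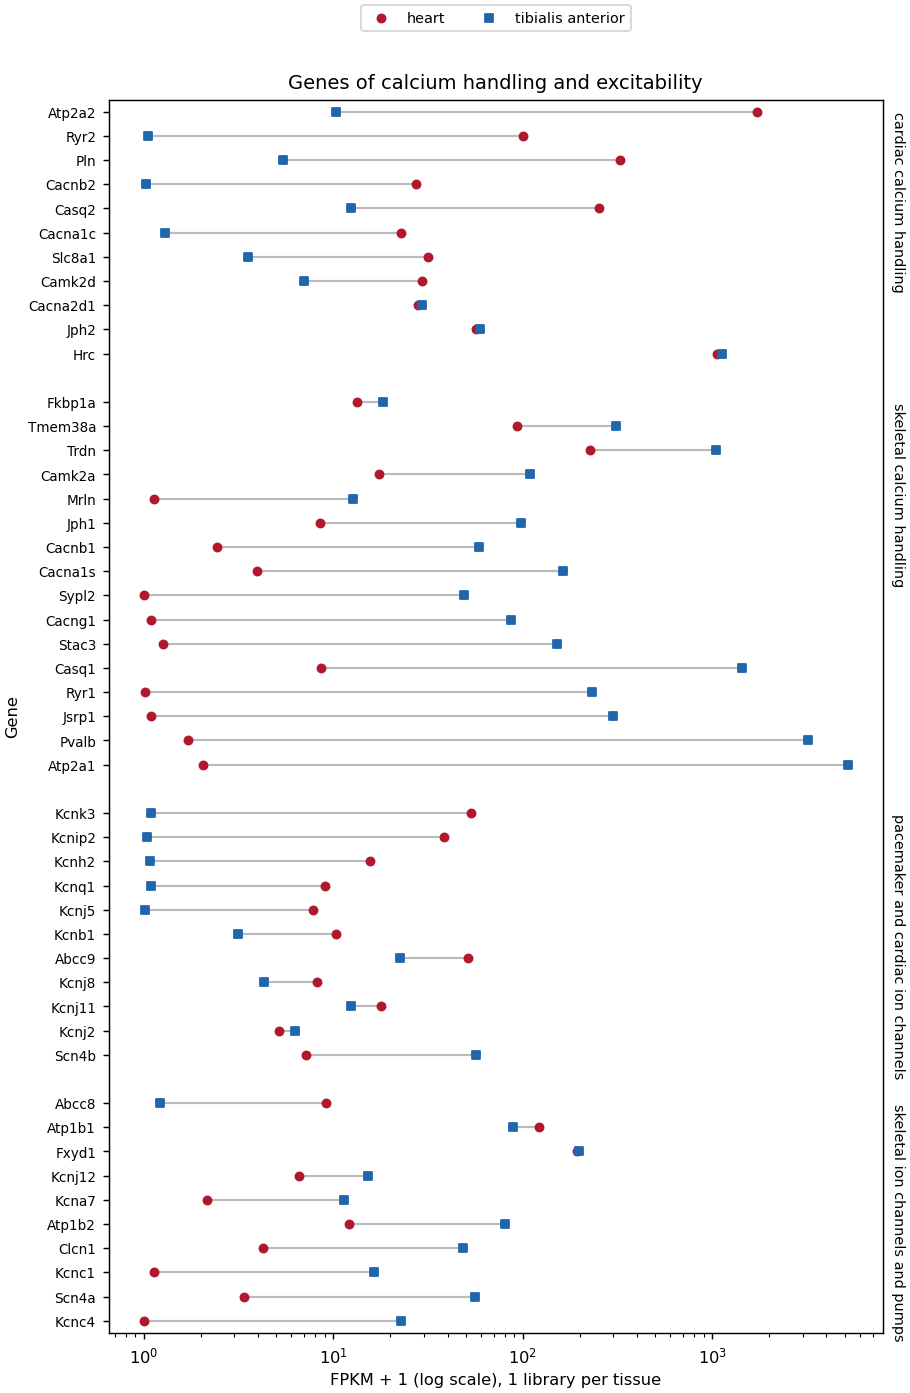
FPKM + 1 on a log axis in heart (red circles) and tibialis anterior (blue squares) for genes of calcium handling, ion channels and pumps with an FPKM of at least 5 in either, 1 library per tissue, ordered within each list by the difference. The lines join the values of a gene, and *Ryr1* and *Ryr2* lie near 1 in the muscle that lacks them, while *Hrc*, *Jph2*, *Cacna2d1*, *Kcnj2* and *Fxyd1*, whose directions flip with the scaling, have both symbols close together.

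Among 24 channels of the cardiac action potential, 6 were called for heart and 1 for tibialis anterior, beside 6.6% and 4.31% of all genes compared. Of the 24, 12 did not reach an FPKM of 5 in either muscle. The gene of this list called for tibialis anterior was *Scn4b*, a beta subunit of sodium channels, with 55.5 FPKM against 6.19 in heart. *Scn4a*, the sodium channel of skeletal fibers, had 55.1 FPKM in tibialis anterior and 2.37 in heart.

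Potassium channels that repolarize cardiomyocytes were found in heart. The leak channel *Kcnk3* had 52.3 FPKM in heart and 0.0887 in tibialis anterior, the transient outward subunit *Kcnip2* had 37.4 and 0.042, and the rapid delayed rectifier *Kcnh2* had 14.7 and 0.0793. The slow delayed rectifier *Kcnq1* had 7.97 and 0.0933, and *Kcnj5* of the acetylcholine-gated current had 6.75 and 0.0121. The inward rectifier *Kcnj2* had 4.19 and 5.27 FPKM, with a direction that flipped with the scaling. Pacemaker channels were low, with *Hcn4* at 1.68 and *Hcn2* at 4.40 FPKM in heart.

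Of 15 channels and pumps of the skeletal sarcolemma, 7 were called for tibialis anterior and 2 for heart, beside 4.31% and 6.6% of all genes. The chloride channel *Clcn1*, which steadies the resting potential of fibers, had 47.1 FPKM in tibialis anterior and 3.23 in heart, and the fast potassium channels *Kcnc1* and *Kcnc4* had 15.4 and 21.8 against 0.136 and 0. One of those called for heart was *Abcc8*, a sulfonylurea receptor that pairs with potassium channels, with 8.12 against 0.214 FPKM. Phospholemman, *Fxyd1*, a small protein of the sarcolemma, had 192 and 196 FPKM, with a direction that flipped with the scaling.

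Genes of nervous control were expressed at low levels. Of 10 genes for autonomic signaling 2 were called for heart and none for tibialis anterior, beside 6.6% and 4.31% of all genes compared. Another 7 missed the filter. The muscarinic receptor *Chrm2*, through which the vagus slows the heart, had 29.3 FPKM in heart and 0.0295 in tibialis anterior, and *Rgs6*, which ends its signal, had 7.10 and 0.088. The beta1 adrenergic receptor *Adrb1* had 3.25 FPKM in heart and 0 in tibialis anterior. Of 12 genes of the neuromuscular junction none was called in either direction and 9 missed the filter, with a median of −1.12. The receptor subunits *Chrna1*, *Chrne* and *Chrnd* had 1.80, 2.75 and 1.04 FPKM in tibialis anterior and were listed at 0 in heart.

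The 2 muscles also differed in the genes for fuel. All 25 genes of fatty acid uptake and oxidation were listed higher in heart, and the median was 1.69 against 0.19 for all genes. At least 4-fold higher in heart were 9 of them and none in tibialis anterior, beside 6.6% and 4.31% of all genes compared. The direction of *Mlycd* and *Acacb* flipped with the scaling, and the number called lay between 6 and 14 over the 4 other scalings. Lipoprotein lipase, *Lpl*, which frees fatty acids from circulating triglycerides, had 533 FPKM in heart and 56.3 in tibialis anterior. The fatty acid translocase *Cd36* had 272 and 34.8, and the binding protein *Fabp3* had 1451 and 196. Supply of fatty acids to the cell thus held the 3 largest differences of the list.

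Activation and oxidation followed with smaller differences. The acyl-CoA synthetase *Acsl1* had 194 FPKM in heart and 35.8 in tibialis anterior, and the last step of the beta-oxidation cycle, *Acaa2*, had 299 and 49.1. The trifunctional protein genes *Hadha* and *Hadhb* had 355 and 164 FPKM in heart against 78.7 and 30.00. Entry into mitochondria was led by the muscle form *Cpt1b* in both muscles, with 90.1 and 45.5 FPKM, and the liver form *Cpt1a* had 9.04 and 1.29. *Acacb*, which makes the malonyl-CoA that restrains this entry, and *Mlycd*, which removes it, had 28.4 and 23.03 FPKM in heart against 26.7 and 21.5 in tibialis anterior.

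**Figure D4:**
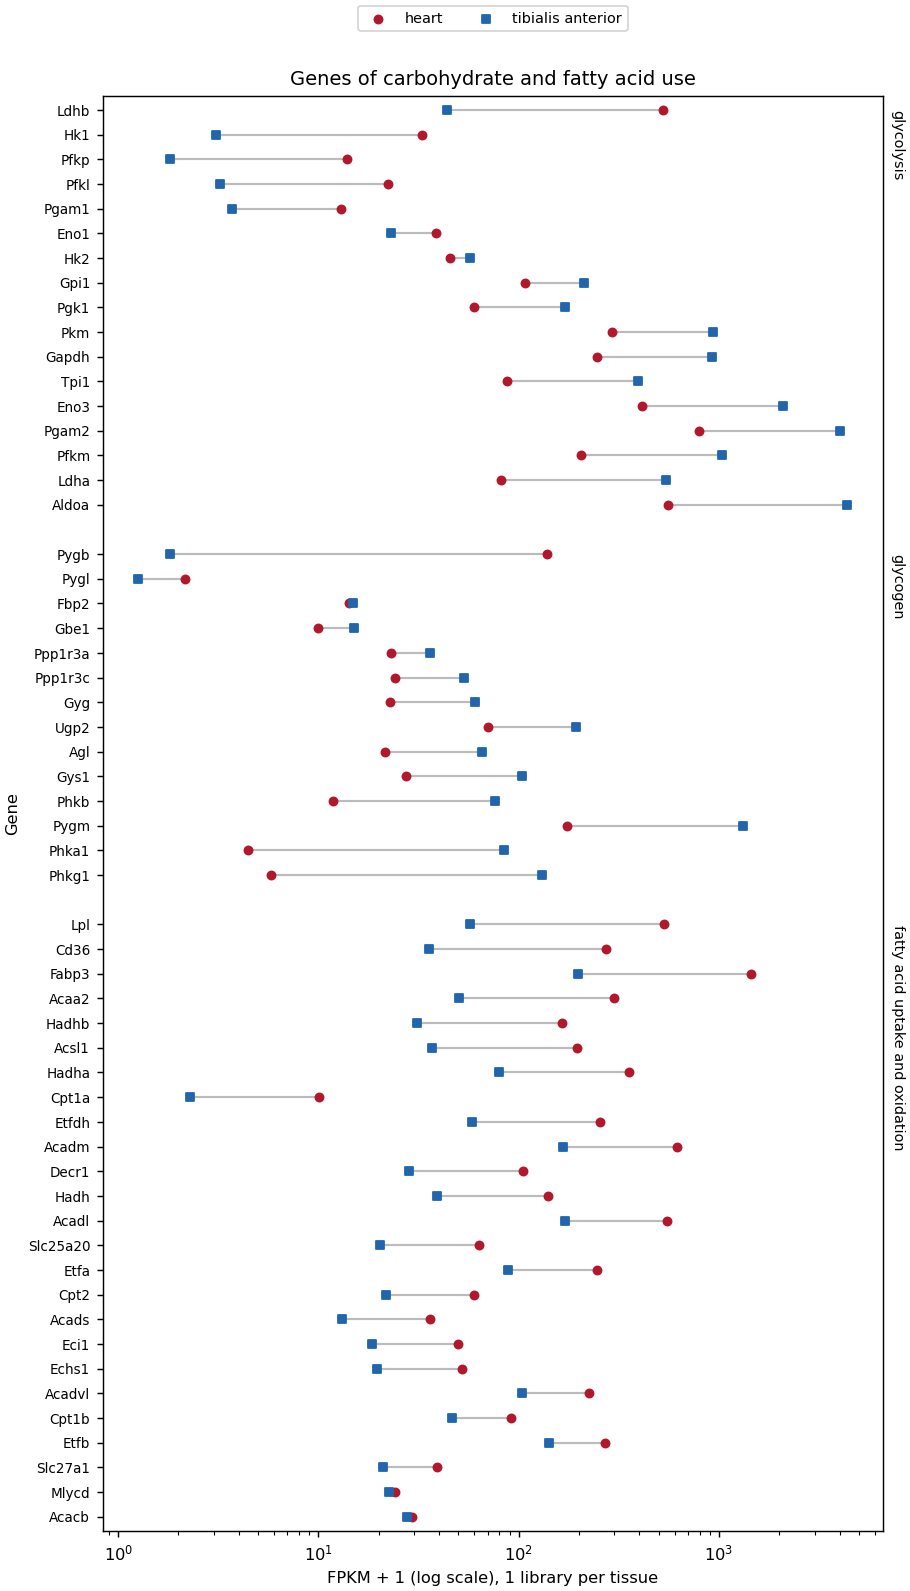
FPKM + 1 on a log axis in heart (red circles) and tibialis anterior (blue squares) for all members of the glycolysis, glycogen and fatty acid lists, 1 library per tissue, ordered within each list by the difference. In the fatty acid list the red symbol lies to the right for every gene, with *Mlycd* and *Acacb* flipping under another scaling, and in the glycolysis list the blue symbol lies to the right for 11 of 17 genes, of which *Hk2* flips.

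Glycolysis did not move as a block. Of 17 genes 6 were called for tibialis anterior and 4 for heart, beside 4.31% and 6.6% of all genes compared. The median was −1.50, and over the other scalings between 2 and 7 were called for tibialis anterior. The genes higher in tibialis anterior were the abundant muscle forms, among them aldolase *Aldoa* (4373 against 553 FPKM), phosphoglycerate mutase *Pgam2* (4043 against 797), enolase *Eno3* (2083 against 411) and phosphofructokinase *Pfkm* (1039 against 204). The 4 genes called for heart were isoforms of the same steps. Hexokinase 1, *Hk1*, had 31.7 FPKM in heart and 2.07 in tibialis anterior, and the liver and platelet phosphofructokinases *Pfkl* and *Pfkp* had 21.1 and 12.9 against 2.22 and 0.822. *Pfkm* nevertheless made up 85.7% of phosphofructokinase in heart.

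Lactate dehydrogenase exchanged its subunit while its sum was nearly the same. *Ldhb*, whose enzyme favors lactate as a substrate, had 527 FPKM in heart and 43.03 in tibialis anterior. *Ldha*, whose enzyme favors lactate as a product, had 80.2 in heart and 539.9 in tibialis anterior. Together they came to 607 FPKM in heart and 583 in tibialis anterior. The lactate carriers were exchanged with them, since *Slc16a1*, which serves uptake, had 53.1 against 10.4 FPKM and *Slc16a3*, which serves export, had 0.0257 in heart and 71.3 in tibialis anterior.

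Of 14 glycogen genes 12 were listed higher in tibialis anterior, with a median of −1.43. Called were 4 for tibialis anterior and 1 for heart, beside 4.31% and 6.6% of all genes compared. One of the 12, *Fbp2*, a fructose bisphosphatase, had 13.3 FPKM in heart and 13.9 in tibialis anterior, and its direction flipped with the scaling. Muscle glycogen phosphorylase, *Pygm*, had 1324 FPKM in tibialis anterior and 173 in heart. The brain form *Pygb* had 137 FPKM in heart and 0.822 in tibialis anterior, so that heart carried both forms and tibialis anterior only *Pygm*. Phosphorylase kinase, which switches the enzyme on, had its subunits *Phka1* and *Phkg1* at 83.2 and 129 FPKM in tibialis anterior and at 3.44 and 4.77 in heart. Glycogen synthase, *Gys1*, had 26.5 in heart and 103 in tibialis anterior.

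The tricarboxylic acid cycle and the respiratory chain were far closer. Of 25 genes for pyruvate dehydrogenase and the cycle only *Idh2* was called, beside 6.6% of all genes compared for heart and 4.31% for tibialis anterior. It had 684 FPKM in heart and 70.03 in tibialis anterior, and the median of the list was 0.43. *Idh2* is the NADP-dependent isocitrate dehydrogenase of mitochondria, while the NAD-dependent enzyme of the cycle, *Idh3a*, had 204 and 274 FPKM. Citrate synthase, *Cs*, had 249.6 and 167, and 2-oxoglutarate dehydrogenase, *Ogdh*, had 336 and 113.

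None of the 42 nuclear genes of respiratory complexes I, III, IV and V was called, and their median was 0.36, with differences from −0.38 to 0.98. For 16 of them the direction flipped with the scaling. Neither was any of the 13 mitochondrially encoded genes called, and their median was 0.88, between 0.66 and 1.27 over the other settings. *mt-Co1*, a core subunit of complex IV, had 57163 FPKM in heart and 28607 in tibialis anterior, and *Atp5b*, the catalytic subunit of ATP synthase, had 3609 and 2196. Of the muscle forms of complex IV, *Cox6a2* and *Cox7a1* led in both muscles. *Cox6a2* held 99.2% of its family in heart and 99.5% in tibialis anterior, and *Cox7a1* held 91.1% and 89.5%. *Cox8b* led only in tibialis anterior, with 57.2% of its family against 24.5% in heart.

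The phosphate buffer and the purine nucleotide cycle were weighted to tibialis anterior. Muscle creatine kinase, *Ckm*, had 3969 FPKM in tibialis anterior and 345 in heart, while its mitochondrial partner *Ckmt2* had 911 in heart and 831 in tibialis anterior with a direction that flipped with the scaling. Brain creatine kinase, *Ckb*, was low, with 11.4 FPKM in heart and 1.24 in tibialis anterior. AMP deaminase was *Ampd1* in tibialis anterior (127 against 0.0195 FPKM) and *Ampd3* in heart (15.4 against 1.88), and *Adssl1* of the same cycle had 346 in tibialis anterior and 34.2 in heart. Of the 13 genes of this list 3 were called for tibialis anterior and 2 for heart, beside 4.31% and 6.6% of all genes compared. The median was −0.18.

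Of 19 genes for shuttles of reducing equivalents and fuel carriers 3 were called for heart and 3 for tibialis anterior, beside 6.6% and 4.31% of all genes compared, with a median of 0.54. The glycerol phosphate shuttle genes *Gpd1* and *Gpd2* had 245 and 18.8 FPKM in tibialis anterior against 26.2 and 1.72 in heart. The malate-aspartate shuttle genes *Mdh1* and *Got1* had 248 and 235 FPKM in heart against 82.7 and 121, below the 4-fold limit. Its 2 aspartate-glutamate carriers differed from each other, *Slc25a13* with 14.9 against 0.54 FPKM and *Slc25a12* with 17.3 in heart and 41.8 in tibialis anterior. Myoglobin, *Mb*, which stores oxygen, had 6733 FPKM in heart and 2122 in tibialis anterior. The insulin-responsive glucose carrier *Slc2a4* had 72.1 and 106. Among 13 genes for ketone bodies and branched-chain amino acids only *Bdh1*, the first step of ketone use, was called, with 18.5 FPKM in heart and 3.38 in tibialis anterior and a call that was lost with another scaling, and *Oxct1*, the next enzyme, had 395 and 149.

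**Figure D5:**
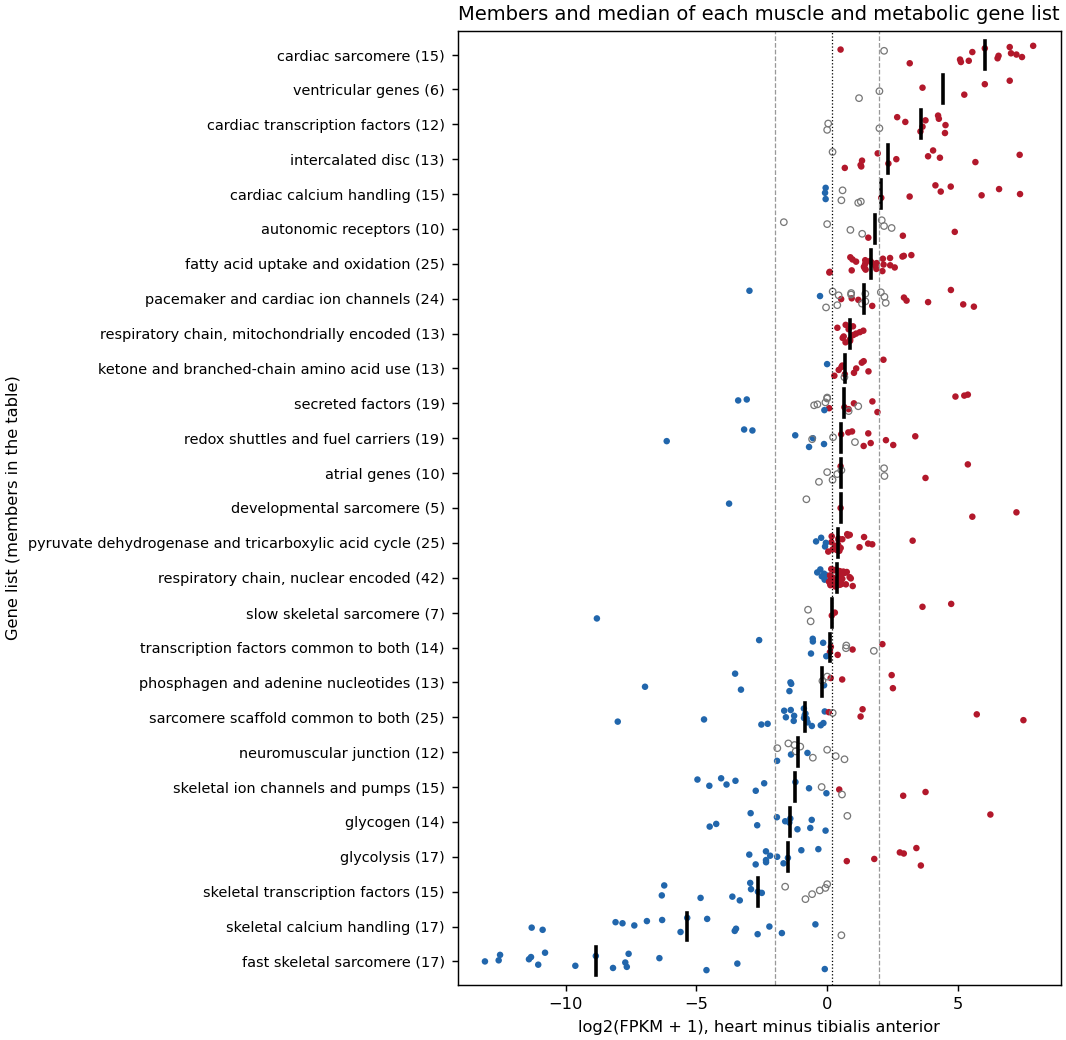
Difference of log2(FPKM + 1), heart minus tibialis anterior, for the members of 27 muscle and metabolic gene lists, 1 library per tissue. Red and blue points are genes listed higher in heart or in tibialis anterior, open circles genes under an FPKM of 5 in both, black bars the list medians, the dotted line the median of all genes (0.19) and the dashed lines the 4-fold limits. The cardiac sarcomere list has its median at 6.03 and the fast skeletal list at −8.85, and the medians of the slow sarcomere list and of the shared transcription factors change sign with the scaling.

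Transcription factors of both lineages were expressed at modest levels. Of 12 cardiac factors 9 were called for heart and none for tibialis anterior, and of 15 skeletal factors 9 were called for tibialis anterior and none for heart. Of all genes compared 6.6% were called for heart and 4.31% for tibialis anterior. *Nkx2-5*, *Tbx5* and *Irx4* had 18.3, 12.6 and 11.5 FPKM in heart and were listed at 0 in tibialis anterior. *Gata4*, a zinc-finger factor of heart development, had 23.1 and 0.274, and *Hand2* had 24.8 and 0.12. *Isl1* and *Hand1*, which act mainly in the embryo, had 0 and 0.0273 FPKM in heart.

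In tibialis anterior *Myf6*, the myogenic factor of mature fibers, had 74.3 FPKM and *Myod1* 8.11, against 0 and 0.183 in heart. *Tbx15*, a T-box factor of glycolytic fibers, had 109 against 0.373 FPKM, and the limb muscle factor *Lbx1* had 27.7 against 0. *Myf5* and *Pax7*, factors of satellite cells, were at 0 and 0.0477 in tibialis anterior. Of 14 factors that both muscles use, *Mef2c* was called for tibialis anterior, with 98.5 against 15.4 FPKM, and *Ppargc1a*, the coactivator of mitochondrial genes, for heart, with 19.96 against 3.85. The latter call was lost with another scaling, under which between 0 and 2 genes of the list were called for heart.

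Secreted factors included the natriuretic peptides of heart. *Nppa* had 95.1 FPKM in heart and 1.30 in tibialis anterior, *Nppb* had 36.96 and 0, and *Corin*, the protease that activates them, had 33.5 and 0.151. In the other direction *Mstn*, the brake on muscle growth, had 10.04 FPKM in tibialis anterior and 0.0419 in heart. Of the 19 genes of the list 3 were called for heart and 2 for tibialis anterior, beside 6.6% and 4.31% of all genes compared, and 7 missed the filter. *Fndc5*, the precursor of irisin, had 69.9 FPKM in heart and 20.4 in tibialis anterior, below the 4-fold limit.

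Ventricular genes were separated further than atrial genes, with medians of 4.45 and 0.53. *Myl2*, *Myl3*, *Irx4* and *Nppb*, 4 of 6 ventricular genes, were called for heart, and 2 missed the filter. Of 10 atrial genes 8 were listed higher in heart, and *Nppa* and *Tbx5* were called. *Nppa* had a higher FPKM in heart than *Nppb* and *Irx4* of the ventricular list. Of the other atrial genes, *Bmp10* was at 0, *Sln* at 0.645, *Myl7* at 3.52, *Kcnj3* at 3.76 and *Myl4* at 12.7 FPKM in heart. The regulatory light chain *Myl7* made up 0.212% of its family in heart. Which chambers were sampled is not given in the sources used here.

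Genes of other cell types of the tissues also moved with the comparison. All 10 endothelial genes were listed higher in heart, none of them 4-fold, with a median of 1.03 and a summed FPKM of 233 against 103. The 5 erythrocyte genes were also higher in heart, 4 of them at least 4-fold, with a median of 2.27 and a summed FPKM of 1046 against 221. The 8 macrophage genes had a median of 1.29 with 1 call for heart, and the 10 fibroblast genes 0.73 with 1 call for heart, *Postn*. Since 6.6% of all genes compared were called for heart, a single call in such short lists is not set apart from that share. *Cd36*, *Lpl* and *Fabp3* are also expressed by endothelium or fat cells, and the part of these cells in the fatty acid list was not tested.

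The other marker lists held few expressed genes. Of 8 adipocyte genes the defining *Adipoq*, *Plin1*, *Lep* and *Retn* lay at or below 0.393 FPKM in both muscles, and the list's single call was carbonic anhydrase 3, *Car3*, which skeletal fibers also make, with 895 FPKM in tibialis anterior and 1.91 in heart. *Fabp4*, a fatty acid-binding protein that endothelium also makes, had 226 FPKM in heart and 102 in tibialis anterior and was most of the list's sum of 248 in heart. None of 6 Schwann cell genes or of 6 mesothelial genes reached an FPKM of 5. The tendon gene *Fmod* had 29.01 FPKM in tibialis anterior and 2.52 in heart, while *Scx* had 1.72 and 1.83. The single call among 6 lymphocyte genes was *Ighm*, the heavy chain of IgM, which had 21.98 FPKM in tibialis anterior and 2.33 in heart. The 8 smooth muscle and pericyte genes had a median of 0.45 and no call, and of 5 satellite cell genes none was called.

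How far each muscle's genes appear in the other can be read from the same values. *Myh6* in tibialis anterior was 0.417% of its heart FPKM, *Tnnt2* 0.652%, *Tnni3* 0.739%, *Mybpc3* 0.436% and *Ryr2* 0.048%. In the reverse direction *Myh4* in heart was 0.0111% of its tibialis anterior FPKM, *Tnnc2* 0.00964%, *Acta1* 1.16% and *Ckm* 8.68%. The shares of cardiac genes in tibialis anterior were thus uneven, with *Actc1* and *Casq2* reaching 2.09% and 4.54%. The source of these low values was not tested. Fast skeletal genes were also present in the adipose libraries, where *Tnnc2* had 155 FPKM in white and 175 in brown adipose tissue and *Myh4* 36.7 and 77.6, more than in heart. Of the cardiac genes *Myh6* had 0.272 and 0.025 FPKM and *Actc1* 0.456 and 0.254 there. *Lmod2* had 4.19 and 3.89, *Myl2* 2.30 and 2.58, and the pump *Atp2a2* 24.3 and 35.2.

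The called genes of both muscles were also placed among the 7 tissues. Of the 426 genes called for heart, 192 (45.1%) were highest in heart, 77 in white adipose tissue, 55 in brain and 46 in small intestine. Of the 278 called for tibialis anterior, 197 (70.9%) were highest in tibialis anterior. A gene called for one muscle cannot be highest in the other. The same shares over all genes compared were not computed, so these have no background to be read against. Genes highest in heart were not absent elsewhere, since *Dsp* had 68.1 FPKM in small intestine and 14.9 in liver, and *Ldhb* had 239 in brain and 335 in brown adipose tissue. *Nppa* and *Nppb* were listed at 0 in the other 5 tissues. The median called heart gene had an FPKM of 16.0 in heart and 1.02 in tibialis anterior, and the median called tibialis anterior gene 29.9 in tibialis anterior and 1.68 in heart. At the limit of the comparison, *Mir133a-2* at 5 FPKM in tibialis anterior and *Cyba* at 5.004 in heart were just inside, and *Zbtb43* at 4.995 in heart and *Gdf11* at 4.994 in tibialis anterior just outside.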

How the data were processed

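TRIzol RNA of heart and skeletal muscle was poly(A)-selected, and the libraries, primed at random, were read on an Illumina NovaSeq. For read filtering the authors used fastp and then bowtie2. Alignment to GRCm38 (mm10) was done by HISAT2 with no strand information, and the deposited FPKM values were obtained from StringTie. The submitters' processing notes name Bowtie2 2.4.1, HISAT2 2.1.0 and Cuffdiff, whose role is not given.

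From the table of 7 tissues, 287 lines that repeat a gene with identical values were dropped. Genes with an FPKM of at least 5 in heart or tibialis anterior were compared on log2(FPKM + 1). This scale understates the difference of genes with low FPKM in either library. A gene was called at a 4-fold difference. No test was run, because each tissue has 1 library. The 38 gene lists and 44 families were written by hand, and members and lists were chosen with earlier results of these data known. Named genes were *Myh6* and *Myh4*, the 10 largest and 10 smallest differences, the 10 most abundant genes of each library and members of the lists and families. The choice among these for the text was made with the values in view. Some members are counted in their lists but are not reported by name or drawn here. *Atp5f1* of the lists was not matched in the table, and 2 symbols with several gene IDs were represented by the most abundant of them.

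Exon overlaps and positions were from GENCODE for GRCm38, and promoters from RefSeq (GRCm38.p6). The step was tested on simulated data. Alternatives were a pseudocount of 0.1, other minimum FPKM, 4 other scalings and a limit of 2-fold or 10-fold. The 3 WT libraries of cold-exposed brown adipose tissue served only as a scale of replicate spread. The table of inguinal fat, which also holds the authors' own fold changes, p-values and group means, was not used. Python 3.11.15, numpy 2.4.6, pandas 2.3.3, scipy 1.17.1 and matplotlib 3.10.9 were used.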

Additional observations from a re-analysis of the deposited data

How the results depend on the processing

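The 426 genes called for heart became 644 when genes of mitochondrial DNA were left out of the library sum, and those for tibialis anterior became 222. With a limit of 2-fold 1316 genes were called for heart and 756 for tibialis anterior, and with 10-fold 126 and 126. Under the other settings the counts stayed within 1.5 times of the main ones, from 295 to 583 for heart and from 241 to 328 for tibialis anterior. The median of the slow skeletal sarcomere went from 0.18 to −0.03, and that of the shared transcription factors from 0.12 to −0.08, when FPKM was rescaled to the same sum. The median of the phosphagen list went from −0.18 to 0 without genes of mitochondrial DNA. The other list medians and the 20 genes with the largest differences kept their direction under all scalings and pseudocounts tried. The number of families with another leading member stayed at 25 with 0.1 added to each FPKM. No paired analysis was possible because each tissue has 1 library and no test was run. Read counts are not stated, so no counting error can be given, and an FPKM listed at 0 cannot be told from a low level.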

Other observations

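Several genes outside the lists were chosen after their values were seen. *Mhrt*, an RNA antisense to *Myh7*, had 89.7 FPKM in heart and 0.572 in tibialis anterior, and its exons overlap those of *Myh7*. The prostaglandin D synthase gene *Ptgds* had 88.7 FPKM in heart and 0 in tibialis anterior. *Lbh*, a regulator named for limb bud and heart, had 274 FPKM in heart and 2.92 in tibialis anterior. *Fam174b* had 112 and 0.294 FPKM.

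*Nnt*, the mitochondrial transhydrogenase that is partly deleted in C57BL/6J mice, appears under 2 overlapping gene IDs of chromosome 13. One had 66.3 FPKM in heart and 0 in tibialis anterior, and the other 18.1 and 2.30, so the division of reads between them is uncertain. The mitochondrial transfer RNA gene *mt-Tm* had 42495 FPKM in heart and 3349 in tibialis anterior, the only gene of mitochondrial DNA among the 10 most abundant of heart that was called. Since the libraries were poly(A)-selected and FPKM is scaled by exon length, the value of so short a gene is uncertain. *Gm10925*, a pseudogene of chromosome 1, had 24745 and 13805 FPKM, close to the 24219 and 13184 of *mt-Atp6*, and the reads of such copies cannot be told apart here.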
